A study of Mus musculus with 20 samples.

Results

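The smooth muscle contractile genes followed here are 8 of the 18193 genes measured: Acta2, Actg2, Tagln, Cnn1, Cald1, Myh11, Des and Synpo. They were listed with earlier results of these data known and picked by gene symbol. All 8 were on the array, with 17 of its 45101 probe sets. Where a gene had several probe sets, the one with the highest mean over the 20 arrays stood for it. Smooth muscle cells contract when a smooth muscle myosin slides along thin filaments of alpha and gamma smooth muscle actin, with calponin, caldesmon and transgelin bound to the actin and desmin filaments linking the dense bodies that anchor it. In vessel walls and in cultured mesoderm these genes are commonly switched on together by serum response factor and its partner myocardin, and Acta2 and Tagln also come on in myofibroblasts and in early heart and skeletal muscle, so neither marks smooth muscle alone.

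The arrays came from mouse ES cell lines of 129sv/Jae background, one lacking both de novo DNA methyltransferases (Dnmt3a-/-Dnmt3b-/-, DKO, transgenic clone 16G4.3) and one wild type (WT, transgenic clone J1G4.2). Both clones carried Gata4GR, Gata4 fused to the hormone-binding part of the glucocorticoid receptor, which dexamethasone (Dex) activates. Each genotype was measured in 5 states with 2 arrays a group: undifferentiated ES cells; primitive endoderm (PE) made from ES cells by 4 days of 100 nM Dex; mesoderm differentiated for 4 days on type IV collagen and sorted for Flk1 and PDGFRa (Flk1(+)); and sorted mesoderm cultured for 4 more days without (Dex-) or with 100 nM Dex (Dex+). Per the labels the arrays within a group were biological replicates. In both Flk1(+) groups replicate 1 came from the parental lines, J1 and 16aabb, without the transgene. Each genotype had 1 transgenic clone, and no cells without the transgene received Dex, so genotype and clone, and Gata4GR activation and Dex itself, cannot be told apart.

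The RefSeq table of promoters (GRCm38.p6) held windows for Acta2, Cnn1, Des and Cald1. The 250 bases before 1 annotated start of Acta2, Cnn1 and Des are shown because these 3 genes had unlike levels across the groups. Capitals in the Acta2 window mark 2 stretches that match the CArG box, the element that serum response factor binds, with up to 1 other base in its core. In the windows of Cnn1 and Des they mark the E-box CANNTG, which is its own reverse complement.
Acta2, chr19:34255374-34255623, minus strand: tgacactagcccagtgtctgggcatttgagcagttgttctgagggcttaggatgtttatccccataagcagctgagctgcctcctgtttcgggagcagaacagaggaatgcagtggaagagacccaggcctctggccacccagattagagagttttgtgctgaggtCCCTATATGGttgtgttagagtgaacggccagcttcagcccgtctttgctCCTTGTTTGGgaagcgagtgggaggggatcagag
Cnn1, chr9:22099003-22099252, plus strand: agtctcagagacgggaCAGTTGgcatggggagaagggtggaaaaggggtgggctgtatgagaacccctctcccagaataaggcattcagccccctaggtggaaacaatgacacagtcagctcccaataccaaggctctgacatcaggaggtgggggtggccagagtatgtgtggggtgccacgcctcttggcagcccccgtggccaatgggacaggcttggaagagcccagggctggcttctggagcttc
Des, chr1:75360042-75360291, plus strand: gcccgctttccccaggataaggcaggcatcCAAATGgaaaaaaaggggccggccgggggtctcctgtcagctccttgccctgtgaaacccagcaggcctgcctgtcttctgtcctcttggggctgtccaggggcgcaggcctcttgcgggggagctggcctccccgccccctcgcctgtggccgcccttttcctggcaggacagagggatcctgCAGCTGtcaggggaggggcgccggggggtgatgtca
The 2 Acta2 stretches began 84 and 34 bases before the start, and 8.59% of the 32851 mouse windows of this length held at least 1 such looser match on either strand. None of the 5 windows of these genes, Cald1 having 2, held an exact CArG box, which 1.47% of all windows did, or, on either strand, the GATA motif (the letters GATA after an A or T and before an A or G), which 26.5% did. The E-box was in 66.2% of all windows, and the Acta2 window held 3 that are not capitalized. The matches describe letters in a window and were not tested for binding.

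Replicate arrays correlated over genes at 0.991 to 0.996 in 8 of the 10 groups, and at 0.985 in DKO Flk1(+) and 0.979 in WT Flk1(+) cells. The sorted groups had the expected surface marker, with Kdr (Flk1) at log2 values of 11.75 to 12.30 on the 4 Flk1(+) arrays, and Pou5f1 was at 11.7 to 12.3 on the 4 ES arrays. Values are log2 signals of a probe set after RMA normalization, in arbitrary units, so they compare arrays and not genes. A gene was called when limma's adjusted p over all genes was under 0.05 and the change at least 2-fold. With 2 arrays a group an exact permutation test cannot go below a two-sided p of 0.333, so calls rest on the spread that limma pools over all 20 arrays. In cultures of many cells, fewer cells of a type and less RNA per cell cannot be told apart.

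In DKO cultures without Dex all 8 genes were higher than in sorted DKO Flk1(+) cells, and 7 of the 8 were lower again in DKO cultures with Dex. In WT 6 of the 8 were higher in cultures without Dex than in sorted cells, and with Dex none was called in either direction. DKO and WT cultures with Dex were far apart in Synpo, Cnn1, Tagln and Acta2, and close together in the brightest probe set of Cald1.

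**Figure D1:**
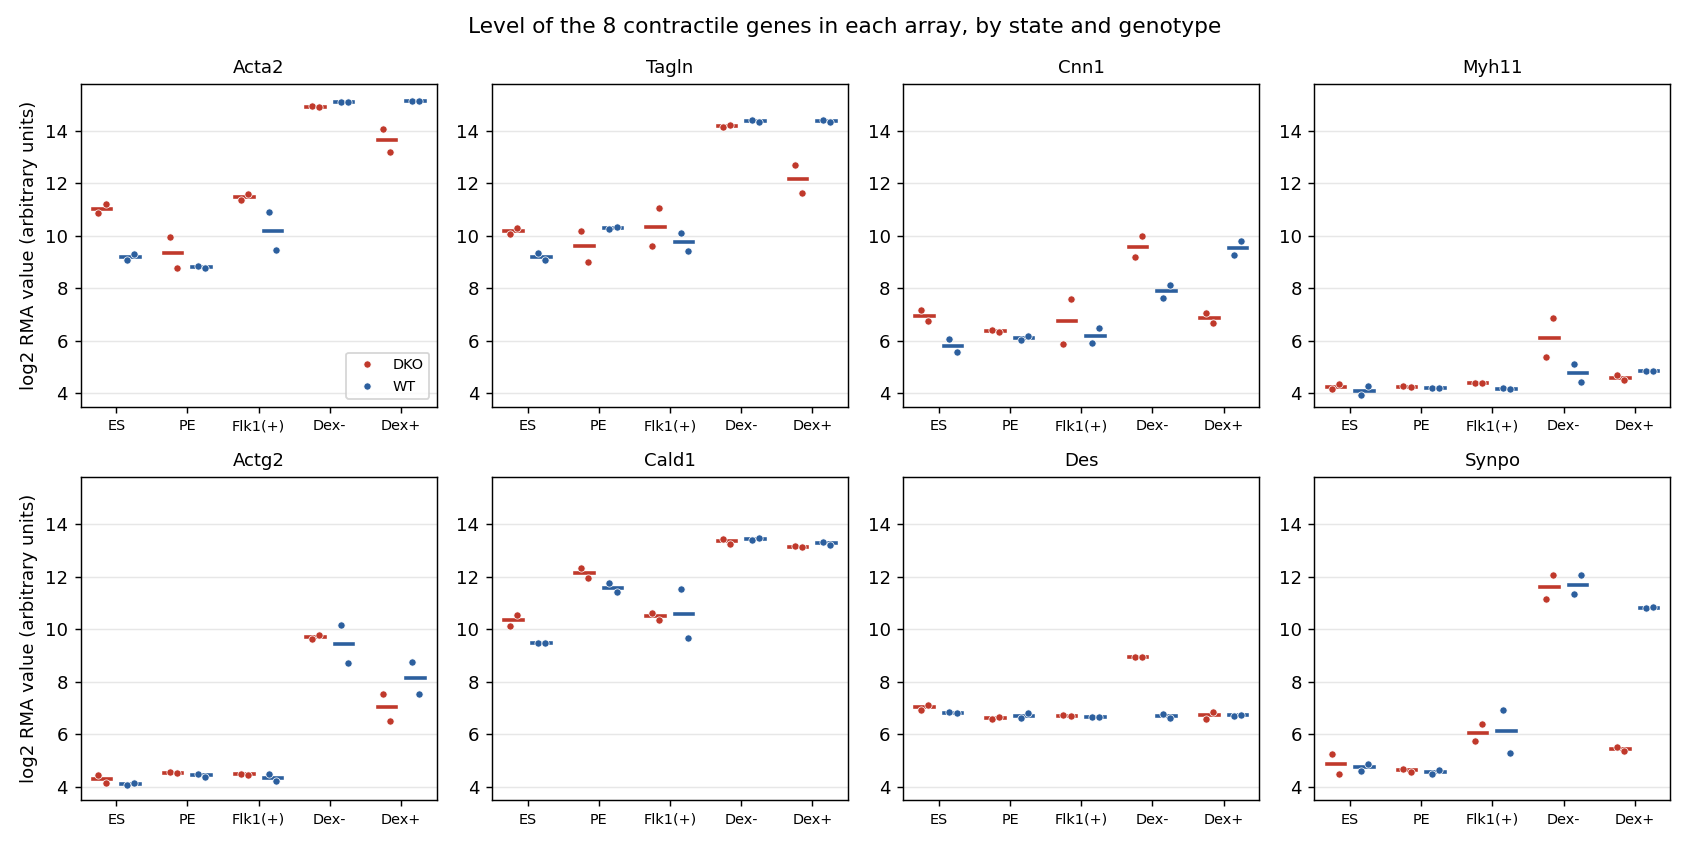
Log2 RMA value (arbitrary units) of each of the 8 genes on every array, by state, with DKO points left of WT points and bars at group means. Apart from Des in WT, the genes have their highest values in cultures of sorted mesoderm, and in Dex+ cultures Synpo, Cnn1, Tagln and Acta2 lie lower on both DKO arrays than on both WT arrays.

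Acta2 encodes alpha smooth muscle actin (GRCm38.p6 chr19:34240336-34255585). Its log2 value was 14.09 and 13.19 in DKO Dex+ cultures, against 14.95 and 14.91 in DKO Dex- cultures and 11.38 and 11.59 in DKO Flk1(+) cells. WT had 15.12 and 15.14 in Dex+ cultures, against 15.11 and 15.09 in Dex- cultures and 10.91 and 9.48 in Flk1(+) cells. The DKO Dex+ arrays thus lay below all 6 other cultured arrays and above all sorted cells. On the WT cultures no probe set of the array was brighter, and on the DKO Dex+ arrays 71 and 287 were, so the WT values stand at the top of the scale, where changes can be compressed.

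The second Acta2 probe set read lower in the range. It had log2 values of 5.42 and 4.25 in DKO Dex+, against 8.39 and 8.39 in DKO Dex-, and 9.28 and 9.27 in WT Dex+, against 9.89 and 10.11 in WT Dex-. On all 12 arrays of ES, PE and Flk1(+) cells it lay between 3.84 and 4.26, so DKO Dex+ replicate 2 was within that range. With it the DKO change with Dex was -3.55 (adjusted p = 5.10e-07) and differed from the WT change by -2.82 (adjusted p = 0.000455), where the brightest probe set gave -1.29 ± 0.40 (SE) and a difference that was not called. This probe set also gave a DKO minus WT difference of -1.61 in Dex- cultures (adjusted p = 0.00124), a difference that the brightest one, at -0.17, did not give. The third Acta2 probe set was at 4.44 and 4.19 in DKO Dex+, against 4.86 and 5.98 in DKO Dex-, and at 6.29 and 5.83 in WT Dex+, against 5.94 and 5.63 in WT Dex-.

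**Figure D2:**
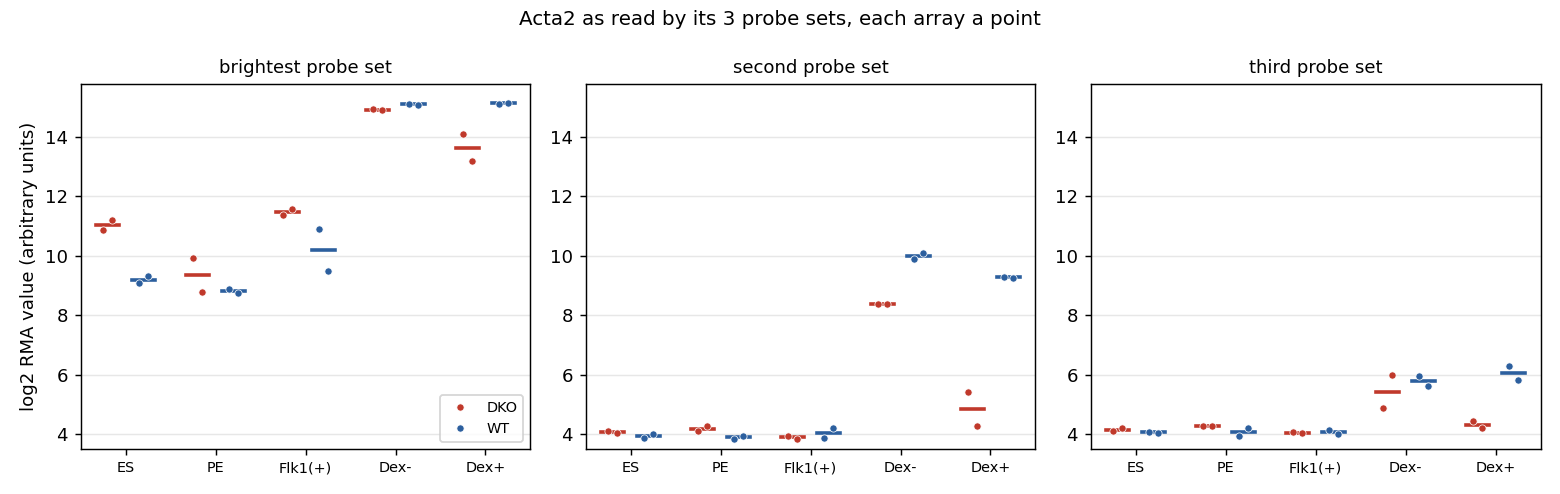
Log2 RMA value of the 3 Acta2 probe sets on every array, by state, DKO left of WT, bars at group means. The brightest probe set is near the top of the scale in both Dex- groups, whereas the second separates DKO from WT in Dex- as well as Dex+ cultures.

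Actg2, gamma smooth muscle actin of gut and uterine muscle (chr6:83512909-83536251), stayed between 4.06 and 4.56 on all 12 arrays before mesoderm culture. It reached 7.52 and 6.51 in DKO Dex+, against 9.61 and 9.78 in DKO Dex-. In WT it was 8.76 and 7.52 with Dex, against 10.15 and 8.70 without. The WT groups overlapped and the DKO groups did not. The 2 replicates lay over 1 log2 unit apart in both WT states and in DKO Dex+.

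Tagln encodes transgelin, an actin-bundling protein also called SM22 alpha (chr9:45929628-45936058). It was 12.70 and 11.63 in DKO Dex+, against 14.13 and 14.23 in DKO Dex-, while all 4 WT culture arrays lay between 14.33 and 14.42. Before culture its 12 values ran between 9.02 and 11.08, with DKO Flk1(+) replicate 2 the highest. Both DKO Dex+ arrays lay between these 2 ranges.

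Cnn1, calponin 1, an actin-bound inhibitor of the myosin motor (chr9:22099221-22109221), had unlike courses in the 2 genotypes. Its log2 value was 7.05 and 6.69 in DKO Dex+, against 9.19 and 9.99 in DKO Dex-. The WT values lay the other way round, with 9.26 and 9.80 in Dex+, against 7.63 and 8.15 in Dex-. The WT Dex- arrays lay between the DKO Dex+ and the DKO Dex- arrays, and DKO Flk1(+) cells already spread between 5.89 and 7.61.

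Cald1, caldesmon, a thin filament regulator with smooth muscle and non-muscle isoforms (chr6:34598495-34775469), was high in every culture whatever the genotype or Dex. It was 13.16 and 13.12 in DKO Dex+, against 13.44 and 13.26 in DKO Dex-, and 13.32 and 13.22 in WT Dex+, against 13.39 and 13.46 in WT Dex-. It was the 1 member called higher in primitive endoderm than in ES cells, at 12.33 and 11.94 in DKO PE, against 10.12 and 10.55 in DKO ES, and 11.74 and 11.42 in WT PE, against 9.47 and 9.48 in WT ES. The second brightest Cald1 probe set was at 12.17 and 11.78 in DKO Dex+, against 13.32 and 13.11 in WT Dex+. Its DKO minus WT difference there was -1.24, not called by limma over all probe sets (adjusted p = 0.194). The dimmer Cald1 probe sets gave -0.35, 0.80 and 0.06, also not called.

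Myh11, the smooth muscle myosin heavy chain and the narrowest marker of the mature contractile state among the 8 (chr16:14194527-14292188), stayed low. Its 12 values before culture ran between 3.94 and 4.41. DKO Dex+ cultures had 4.71 and 4.51, against 5.38 and 6.86 in DKO Dex-, and WT had 4.87 and 4.86 with Dex, against 5.14 and 4.42 without. The single high array was DKO Dex- replicate 2, and the second Myh11 probe set was at 4.04 to 4.51 on all 20 arrays.

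Des, desmin, the muscle intermediate filament (chr1:75360292-75368579), was high in 1 group. It was 6.57 and 6.86 in DKO Dex+, against 8.93 and 8.96 in DKO Dex-, and 6.70 and 6.75 in WT Dex+, against 6.75 and 6.61 in WT Dex-. All 18 arrays outside DKO Dex- lay between 6.57 and 7.11, and the second Des probe set was at 4.47 to 5.34 on all 20 arrays. Synpo, synaptopodin, an actin-associated protein of stress fibres, kidney podocytes and dendritic spines, was 5.52 and 5.34 in DKO Dex+, against 11.14 and 12.05 in DKO Dex-. WT had 10.82 and 10.83 with Dex, against 11.33 and 12.06 without. Sorted cells had 5.74 and 6.37 in DKO and 6.92 and 5.30 in WT, so the DKO Dex+ arrays lay below both DKO sorted arrays and within the range of all 4. The second Synpo probe set was at 5.47 to 6.08 on all arrays, and the second probe sets of Myh11, Des and Synpo gave none of the calls reported below.

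The first step, Dex- cultures against Flk1(+) cells, compares 4 days of culture without Dex with sorted cells. Replicate 1 of the Flk1(+) cells was the parental line in both genotypes, so the line differed there as well. In DKO 8 of 8 genes were called, all higher, against 16.6% of all genes called in either direction, and their median change was 3.15 against 0.03 over all genes. In WT 6 of 8 were called, all higher, against 15.3% of all genes, with a median of 3.71 against 0.01. Here and below the shares over all genes are a description and no test of the list. The members and gene lists were chosen with earlier results of these data known. Synpo changed by 5.54 ± 0.43 (SE, n = 2 arrays each, adjusted p = 2.97e-07) in DKO and 5.58 ± 0.43 (adjusted p = 2.27e-07) in WT, 46.5-fold and 47.9-fold. Actg2 changed by 5.22 in DKO and 5.08 in WT, Cald1 by 2.85 and 2.84, Tagln by 3.82 and 4.59 and Acta2 by 3.44 and 4.91, so these 5 rose in both genotypes. Cnn1 rose by 2.84 in DKO and 1.69 in WT. Myh11 rose by 1.72 ± 0.33 (adjusted p = 0.000853) in DKO and changed by 0.60 (adjusted p = 0.214) in WT, and Des rose by 2.24 ± 0.13 (adjusted p = 1.66e-08) in DKO and changed by 0.03 (adjusted p = 0.915) in WT.

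The difference between these DKO and WT changes was called for 1 of the 8, against 2.91% of all genes. That gene was Des, whose change was 2.21 ± 0.18 larger in DKO (adjusted p = 1.17e-05). Without DKO Dex- replicate 2 the Myh11 change in DKO was 0.98, under 2-fold, and without WT Flk1(+) replicate 1 or WT Dex- replicate 2 the Cnn1 change in WT was 1.41 or 1.43 and was not called (adjusted p = 0.0557 and 0.0683). The difference between the changes was also called without WT Flk1(+) replicate 1 for Acta2 (-2.18, adjusted p = 0.0181), without DKO Flk1(+) replicate 2 for Cnn1 (2.00, adjusted p = 0.0280) and without DKO Dex- replicate 1 for Myh11 (1.86, adjusted p = 0.00516). On the 1 scan day with both states, which holds the parental Flk1(+) arrays, the 8 changes were 0.97 to 5.41 in DKO and 0.09 to 5.67 in WT.

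The comparison of Dex+ with Dex- cultures asks what differed in mesoderm cultured with Dex, which activates Gata4GR. In DKO 7 of 8 genes were called, all lower, against 9.63% of all genes, with a median of -2.12 against 0.01 over all genes. Synpo fell by 6.17 ± 0.43 on the log2 scale (adjusted p = 1.42e-07), a 71.8-fold difference and the largest of the 8. The change was -2.72 ± 0.43 for Cnn1 (adjusted p = 0.000326), -2.68 ± 0.42 for Actg2 (adjusted p = 0.000338) and -2.23 ± 0.13 for Des (adjusted p = 1.77e-08). It was -2.01 ± 0.43 for Tagln (adjusted p = 0.00369), -1.51 ± 0.33 for Myh11 (adjusted p = 0.00406) and -1.29 ± 0.40 for Acta2 (adjusted p = 0.0364). Cald1, at -0.21 ± 0.39 (adjusted p = 0.825), was the 1 gene not called. This comparison and the one before it share the Dex- arrays, so their values are not independent of each other.

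In WT 0 of 8 were called by limma, against 1.6% of all genes, with 2 of the 8, Cnn1 and Actg2, at an unadjusted p under 0.05. Their changes were 1.64 ± 0.43 (adjusted p = 0.0597) for Cnn1, which was called once the replicate number was a block (adjusted p = 0.0459), and -1.28 ± 0.42 (adjusted p = 0.164) for Actg2. Synpo was at -0.87 (adjusted p = 0.461), and the other 5 were between -0.15 and 0.08. The difference between the DKO and WT changes was called for 3 of 8, against 5.86% of all genes: Synpo at -5.30 ± 0.61 (adjusted p = 7.88e-05), Cnn1 at -4.36 ± 0.60 (adjusted p = 0.000390) and Des at -2.27 ± 0.18 (adjusted p = 2.31e-06). It was -2.02 for Tagln (adjusted p = 0.0643), -1.60 for Myh11 (adjusted p = 0.0546), -1.40 for Actg2 (adjusted p = 0.212) and -1.32 for Acta2 (adjusted p = 0.217), none of them called, and -0.06 for Cald1. Leaving out 1 array brought calls that the full set did not give: the Actg2 change in WT without WT Dex- replicate 2 (-2.01, adjusted p = 0.0244) or WT Dex+ replicate 1 (-1.90, adjusted p = 0.0455), and the differences of Actg2 (-2.12, adjusted p = 0.0399) and Myh11 (-1.95, adjusted p = 0.0409) without WT Dex- replicate 1, of Myh11 without DKO Dex- replicate 1 (-2.33, adjusted p = 0.000518) and of Tagln without DKO Dex+ replicate 1 (-2.56, adjusted p = 0.0330). The Tagln difference was also called with only the groups compared in the fit (adjusted p = 0.0168).

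**Figure D3:**
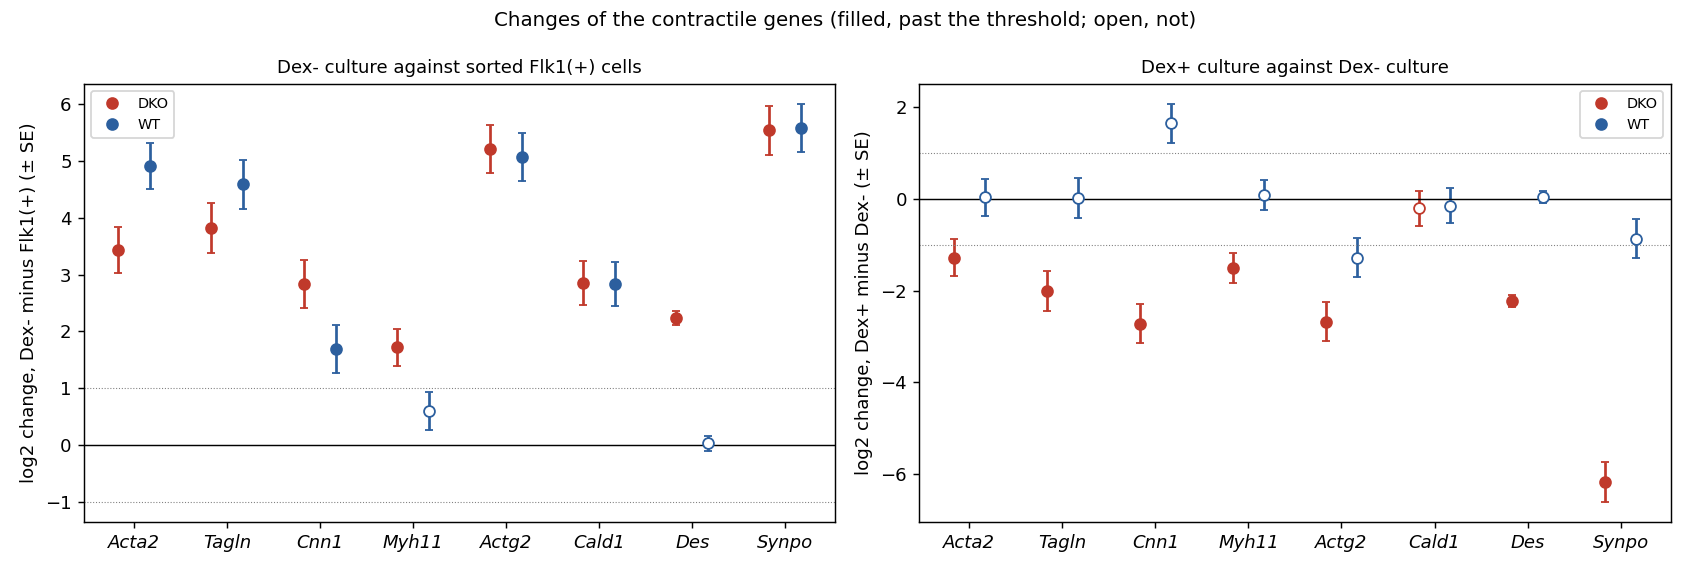
Log2 change of each gene, Dex- against Flk1(+) and Dex+ against Dex-, DKO points beside WT points, with bars of 1 SE. The 7 DKO genes called with Dex lie between -1.29 and -6.17, and the WT values for the same step lie between -1.28 and 1.64.

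Leaving out DKO Dex+ replicate 2 took the change of Acta2 to -0.84 (adjusted p = 0.332) and that of Tagln to -1.48 (adjusted p = 0.0685), and leaving out DKO Dex- replicate 2 took that of Myh11 to -0.77, under 2-fold. Acta2 was also not called without DKO Dex- replicate 1 (-1.27, adjusted p = 0.139) or replicate 2 (-1.31, adjusted p = 0.127), or with scan day as a block (-1.07, adjusted p = 0.170), after a further quantile normalization (-1.15, adjusted p = 0.0574) or with p-values adjusted over all probe sets (adjusted p = 0.0582). Within the scan day that held both states of DKO, the 8 changes were all below 0, between -0.11 for Cald1 and -6.62 for Synpo. The DKO Dex+ mean lay 0.63 below that of DKO Flk1(+) cells for Synpo, 0.12 and 0.01 above it for Cnn1 and Des, and 2.15 and 2.65 above it for Acta2 and Cald1, values given with no test.

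Set directly against WT in each state, DKO cells had 3 of 8 genes called in Dex- cultures, all higher, against 5.84% of all genes. Des was 2.27 ± 0.13 higher (adjusted p = 3.09e-08), Cnn1 1.70 ± 0.43 higher (adjusted p = 0.0159) and Myh11 1.34 ± 0.33 higher (adjusted p = 0.0142). Without DKO Dex- replicate 2 the Cnn1 and Myh11 differences were 1.30 and 0.60 and neither was called (adjusted p = 0.164 and 0.158). They were not called either without 1 of the WT Dex- arrays, replicate 1 for Cnn1 (1.44, adjusted p = 0.133) and replicate 2 for Myh11 (0.98, adjusted p = 0.142), and Myh11 was not called with only the groups compared in the fit (adjusted p = 0.104). On the 2 scan days that each held 1 array of both genotypes the difference was 2.35 and 2.18 for Des, 1.84 and 1.56 for Cnn1, and 2.44 and 0.24 for Myh11.

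With Dex 4 of 8 were called, all lower in DKO, against 9.65% of all genes. Synpo was at -5.40 ± 0.43 (adjusted p = 5.22e-07), a 42.1-fold difference, Cnn1 at -2.66 ± 0.43 (adjusted p = 0.000398), Tagln at -2.22 ± 0.43 (adjusted p = 0.00194) and Acta2 at -1.49 ± 0.40 (adjusted p = 0.0162). Acta2 was not called when either WT Dex+ array or DKO Dex+ replicate 2 was left out, with changes of -1.51, -1.48 and -1.05 (adjusted p = 0.0658, 0.0812 and 0.198), or after a further quantile normalization (-1.15, adjusted p = 0.0574). Actg2, at -1.12 ± 0.42 (adjusted p = 0.0851), was not called, but was with the replicate number as a block within each state (adjusted p = 0.0176), without WT Dex+ replicate 2 (-1.74, adjusted p = 0.0198) and without DKO Dex+ replicate 1 (-1.63, adjusted p = 0.0395). All 4 Dex+ arrays were scanned on the same day. Cnn1 was thus higher in DKO without Dex and lower with it.

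Before culture few differences between the genotypes were called. In ES cells 1 of 8 was called, against 1.39% of all genes: Acta2 had 10.86 and 11.20 in DKO, against 9.07 and 9.32 in WT, a difference of 1.83 ± 0.40 (adjusted p = 0.0268). The second Acta2 probe set differed by 0.14 there (adjusted p = 0.977), and the call was lost without any 1 of the 4 ES arrays, where the difference was 1.66 to 2.00 (adjusted p between 0.0888 and 0.230). Acta1, skeletal muscle actin, was 2.84 higher in DKO ES cells (adjusted p = 1.19e-05), and Actc1, cardiac actin, was at 1.88 (adjusted p = 0.120). The brightest Acta2 probe set is of the type that the array's maker marks as able to match several transcripts, and whether these actins contributed to it was not tested. With the replicate number as a block within each state Cnn1 was also called in ES cells, at 1.13 (adjusted p = 0.0474). In PE 0 of 8 were called by limma, against 1.96% of all genes, and 0 of 8 had an unadjusted p under 0.05. In Flk1(+) cells 0 of 8 were called, against 0.698% of all genes, with Acta2, at 1.30 (adjusted p = 0.155), the 1 gene at an unadjusted p under 0.05. Acta2 was called there without WT Flk1(+) replicate 1 (2.01, adjusted p = 0.00933), and so were Cnn1 without DKO Flk1(+) replicate 1 (1.41, adjusted p = 0.0469) and Cald1 without WT Flk1(+) replicate 2 (-1.02, adjusted p = 0.0200). In Flk1(+) cells the differences of Tagln, Cnn1, Cald1 and Synpo were above 0 on one scan day and below 0 on the other. One day held the transgenic clones and the other the parental lines, on another chip lot. Scan day, line and lot cannot be told apart here.

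**Figure D4:**
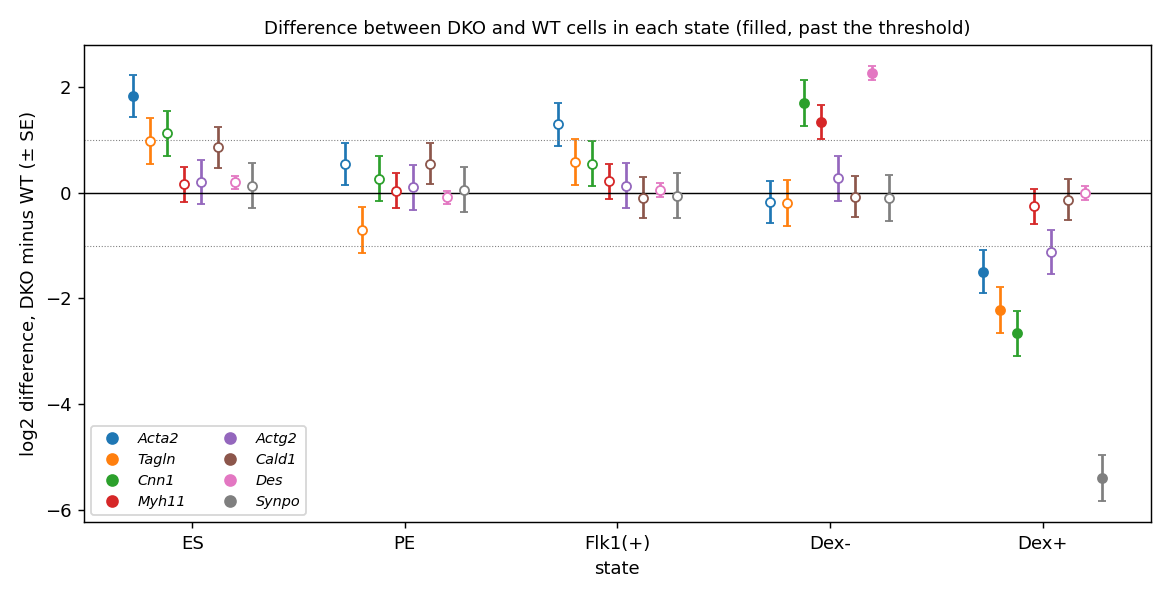
DKO minus WT log2 difference of each of the 8 genes in the 5 states, with bars of 1 SE. In ES, PE and Flk1(+) cells only Acta2 in ES cells (1.83) was called. Des, Cnn1 and Myh11 are above 0 in Dex- cultures, and Synpo, Cnn1, Tagln and Acta2 are below 0 in Dex+ cultures.

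The comparison of PE with ES cells asks what differed after ES cells were given Dex for 4 days. In PE against ES cells 2 of 8 were called in DKO, against 16.3% of all genes, and 1 in WT, against 14.2%. Cald1 rose by 1.80 ± 0.39 (adjusted p = 0.00194) in DKO and by 2.11 ± 0.39 (adjusted p = 0.000651) in WT, and Acta2 fell by 1.67 ± 0.40 (adjusted p = 0.00458) in DKO, a call lost without DKO PE replicate 2 (-1.09, adjusted p = 0.0889). The second Acta2 probe set changed by 0.11 in the same comparison. Tagln, at 1.09 in WT (adjusted p = 0.0757), was called only when no other groups were in the fit (adjusted p = 0.000624). In Flk1(+) against ES cells 0 of 8 were called by limma in DKO, against 10.2% of all genes, with 2 at an unadjusted p under 0.05, and 2 in WT, against 12.5%, Cald1 at 1.12 and Synpo at 1.37. Both WT calls were lost without WT Flk1(+) replicate 1, the parental array (0.19 and 0.56), and without either WT ES array (1.11 and 1.12 for Cald1, 1.24 and 1.51 for Synpo), and Acta2 was called without WT Flk1(+) replicate 2 (1.71, adjusted p = 0.00388). All ES arrays were scanned on a day of their own, so scan day and these comparisons with ES cells cannot be told apart.

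Cells given Dex as mesoderm also differed from cells given it as ES cells. In Dex+ cultures against PE 3 of 8 were called in DKO, all higher, against 4.47% of all genes, and 6 of 8 in WT, all higher, against 12.3%. Acta2 was 4.28 ± 0.40 higher (adjusted p = 6.59e-06) in DKO and 6.32 ± 0.40 (adjusted p = 3.48e-08) in WT, Tagln 2.57 and 4.08, and Actg2 2.48 and 3.70. Synpo changed by 0.81 in DKO (adjusted p = 0.356) and was 6.26 higher in Dex+ cultures than in PE in WT (adjusted p = 7.46e-08). With the other 2 Acta2 probe sets the DKO change was 0.66 (adjusted p = 0.215) and 0.04 (adjusted p = 0.980), neither called, against 5.39 and 2.01 in WT, both called. Cnn1 changed by 0.49 in DKO (adjusted p = 0.663) and was 3.42 higher in WT (adjusted p = 2.85e-05). Against the PE array of the same scan day the called changes were 2.51 to 4.86 in DKO and 1.85 to 6.37 in WT.

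Genes that work with the 8 in the contractile apparatus are given next. Of 15 measured partners (light chains, tropomyosins, phosphatase subunits and scaffold proteins), 4 fell and 1 rose in DKO Dex+ against Dex- cultures, where 9.63% of all genes were called. Of those that fell, the tropomyosin Tpm2 was at -2.99, the myosin phosphatase inhibitor Ppp1r14a at -2.29 and the scaffold Pdlim7 at -1.69. The regulatory light chain Myl9 was at -0.11 (adjusted p = 0.933), the light chain kinase Mylk at -0.55 (adjusted p = 0.141) and smoothelin (Smtn) at -0.36 (adjusted p = 0.157). In WT 1 of the 15 was called, Pdlim3, which rose by 4.54. In Dex- against Flk1(+) cells 7 rose and 0 fell in DKO, with 16.6% of all genes called, and 8 rose and 1 fell in WT, with 15.3% called. Tpm2 rose by 4.01 in DKO and 3.34 in WT, and the LIM protein Csrp1 by 3.55 and 3.36. Myl9 rose by 2.00 in DKO (adjusted p = 0.00252) and by 4.87 in WT (adjusted p = 1.12e-06). Of 14 genes of the membrane plaques to which the filaments attach, 5 fell and 0 rose in DKO with Dex, among them the integrins Itga1 at -2.15 and Itgb1 at -1.41 and the actin-linked adaptor Parva at -1.62. Without Dex 11 of the 14 had risen and 1 had fallen in DKO against Flk1(+) cells, and 9 and 1 in WT, with Parva at 3.43 in DKO and 3.59 in WT. Of 11 paralogs from other cells 6 rose in DKO and 5 in WT in that step, among them calponin 2 (Cnn2) by 2.35 and 2.85 and vimentin (Vim) by 1.86 and 2.07, and 2 fell in DKO with Dex, Acta1 at -1.75 and the non-muscle myosin Myh10 at -2.13.

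Of 10 genes of the serum response factor axis, which holds activators of these genes such as Srf and Myocd and repressors such as Klf4, 0 fell and 1, Klf4, rose in DKO Dex+ against Dex- cultures, and 2, Myocd and Klf4, rose in WT. Of all genes 9.63% were called in that comparison in DKO, a share near that of the list, and 1.6% in WT. In Dex- against Flk1(+) cells 5 rose and 0 fell in DKO, with 16.6% of all genes called, and 3 rose and 2 fell in WT, with 15.3% called. Mrtfb, a myocardin relative, and Foxo4 changed by less than 2-fold in DKO, at -0.66 (adjusted p = 0.0327) and -0.62 (adjusted p = 0.0255). Myocardin (Myocd) had log2 values of 9.35 and 9.02 in DKO Dex+, against 9.53 and 8.02 in DKO Dex-, and of 8.88 and 9.48 in WT Dex+, against 5.42 and 5.45 in WT Dex-. With Dex the arrays of the 2 genotypes overlapped, and without Dex Myocd was 3.34 higher in DKO (adjusted p = 7.57e-05). Klf4, a repressor of smooth muscle genes in vessel injury models, was 12.64 and 12.65 in DKO Dex+, against 10.76 and 11.25 in WT Dex+, and rose with Dex by 2.95 in DKO and 1.93 in WT.

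With Dex in DKO many signalling and matrix genes were lower, as were 7 of the 8 members. Of all genes 9.63% were called in that comparison in DKO and 1.6% in WT. Of 14 genes of TGF-beta, Notch and PDGF signalling, the pathways known to drive mural cell fates, 10 fell and 2 rose in DKO with Dex, with the ligand Tgfb3 at -4.22, the Notch ligand Jag1 at -4.96 and the PDGF receptor Pdgfrb at -5.05, and 1 fell and 1 rose in WT. Among 8 fibroblast genes 6 fell and 0 rose in DKO, led by Col1a1 at -5.92, Col3a1 at -5.92 and Postn at -4.04, with a median of -3.10. In WT the 8 changes lay between -1.66 for Col3a1 (adjusted p = 0.297) and -0.05 for Thy1, and limma called none. The mean of the fibroblast list was 6.90 and 6.77 in DKO Dex+, against 9.94 and 9.67 in DKO Dex-, and 10.10 and 10.02 in WT Dex+, against 10.78 and 10.66 in WT Dex-. Among 11 mural cell genes 5 fell and 0 rose in DKO, among them Angpt1 at -4.15 and Rgs5 at -2.97, and 1 rose in WT. Pdgfrb and Notch3 are in this list and in the signalling list, so the counts of these lists overlap. The mural list did not rise as a whole in Dex- against Flk1(+) cells. There 4 rose and 1 fell in DKO (median -0.02, 16.6% of all genes called), and 3 rose and 1 fell in WT (median 0.02, 15.3% called). Those that rose included Pdgfrb, by 2.04 in DKO and 3.43 in WT, and Angpt1, by 4.08 and 2.40. Rgs5 was at -2.81 in WT. The mean level of the mural list was 5.73 and 5.66 in DKO Dex+ cultures, against 6.83 to 7.25 on the other 6 culture arrays and 6.34 to 6.95 on the Flk1(+) arrays. Cspg4, which marks pericytes, lay between 6.43 and 6.74 on all 20 arrays. The part of other cell types in the result was not tested.

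With Dex in DKO genes of 2 other cell types went the opposite way in the same arrays. In that comparison 9.63% of all genes were called in DKO and 1.6% in WT. Among 12 primitive endoderm genes 9 rose and 0 fell in DKO with Dex, among them Pth1r by 6.03, Sox17 by 5.34 and Foxa2 by 4.41, and 2 rose in WT. Their mean level was 12.04 and 12.21 in DKO Dex+, against 9.49 and 9.27 in DKO Dex-, and 9.91 and 10.11 in WT Dex+, against 9.15 and 9.48 in WT Dex-. The 2 DKO Dex+ arrays lay just below the PE arrays, at 12.32 to 12.68, and above all other cultures. In Dex- against Flk1(+) cells the endoderm list did not go against the members. There 5 of the 12 rose and 2 fell in DKO (median 1.36, 16.6% of all genes called). In WT 6 rose and 2 fell (median 0.75, 15.3% called). Of 8 cardiac muscle genes 5 rose and 0 fell in DKO with Dex, with Myl7 at 5.83, Myh7 at 3.59 and Tnnt2 at 3.10. In WT 2 rose and 0 fell, Tnnt2 by 4.75 and Myl7 by 4.43. The mean of the cardiac list was 7.98 and 7.81 in DKO Dex+, against 5.84 and 6.03 in DKO Dex-. In WT it was 6.96 and 6.92 in Dex+, against 5.48 and 5.62 in Dex- cultures. The part of these lists in the result was not tested either.

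**Figure D5:**
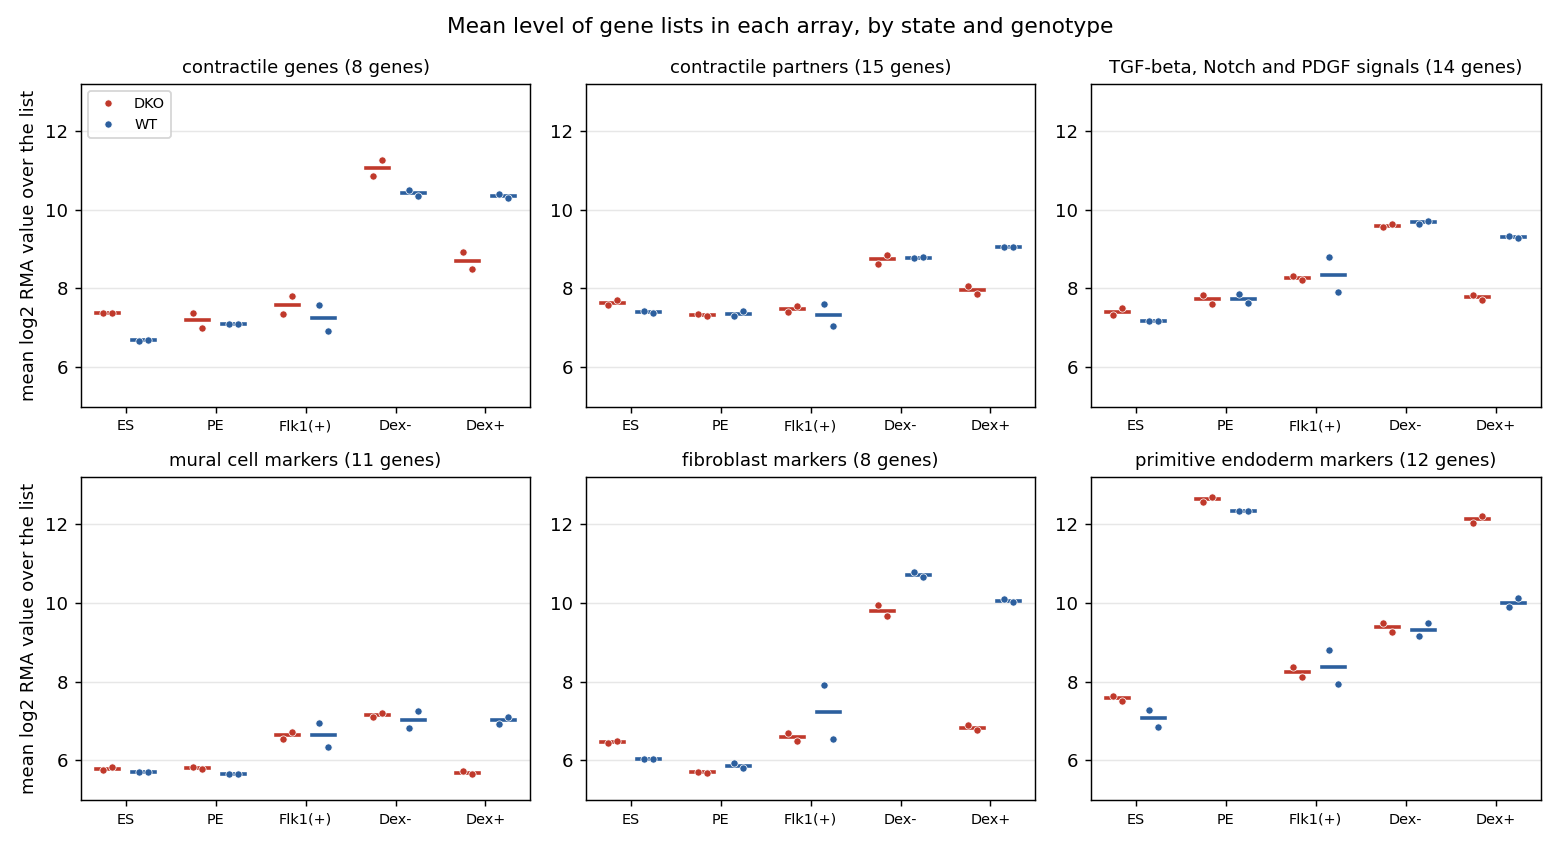
Mean log2 value of each gene list on every array, by state, DKO left of WT, with bars at group means. In DKO Dex+ cultures the fibroblast mean (6.90 and 6.77) is low and the primitive endoderm mean (12.04 and 12.21) high, on the same arrays on which 7 of the 8 contractile genes are lower than in DKO Dex- cultures.

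As a description over the 20 arrays, which share replicate structure and state, the members fell into unlike patterns. Tagln and Actg2 had the highest Pearson correlation among the 8 (0.952), with Acta2 and Tagln next (0.949), and Cald1 and Des the lowest (0.288). The genes most like Acta2 were Fstl1 (0.961), Ccdc80 (0.960) and Tpm1 (0.957), and those most like Tagln were Tpm1 (0.983), Thbs1 (0.969) and Msrb3 (0.967). Synpo was most like the collagens Col1a1 (0.987) and Col5a1 (0.981) and Ccn4 (0.981), and Actg2 most like Tmem108 (0.987). Cald1 was most like Itgav (0.980), Sptbn1 (0.972) and Anxa2 (0.970). Des and Myh11, each high on 1 group or array, had other neighbours: Sprr2f (0.973), Cd200r1 (0.968) and the troponin gene Tnni2 (0.966) for Des, and Pf4 (0.974), Lyz1 (0.914) and Plek (0.913), genes of platelets and macrophages, for Myh11. Cnn1 had Zdhhc16 (0.940), Tnc (0.926) and Mtap (0.921).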

How the data were processed

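Total RNA of 20 cell samples was labelled in 2 cycles and hybridized to 1 Affymetrix mouse array each. Per the submitters' notes the authors made log2 values for each probe set by RMA, which corrects background, brings all arrays to one distribution by quantiles and summarizes probes by median polish, and deposited these. The platform annotation gave 1 gene for 34945 probe sets, several for 932 and none for 9224. Each gene was read by its brightest probe set, which left 18193 genes and no filter on low values. limma 3.58.1 in R 4.3.3 was fitted with a mean for each of the 10 groups over all 20 arrays, and p-values were adjusted over all genes by Benjamini-Hochberg. The method was tested on simulated data. SAM, which the study's methods name, was not run.

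The 8 members and all gene lists were chosen with earlier results of these data known. Every member was named, with the 3 genes of highest Pearson correlation over the 20 arrays and, for the pathway lists, genes among the 3 called ones of largest change in a culture or Dex comparison. Mylk, Smtn, Mrtfb, Foxo4, Acta1, Actc1, Myh3, Tnnt3 and the markers that define a cell type were named beside these, after their values were seen. Deviations of same-numbered DKO and WT arrays from their group means correlated weakly within every state (0.175 to 0.361), so these arrays may be paired. They shared a scan day that differed between replicates in 3 states, and a chip lot that did so in ES and Flk1(+) cells. In Flk1(+) cells replicate 1 was also the parental line in both genotypes. Which of these the correlations reflect was not tested, and the main fit had no term for pairs. Alternatives covered probe set choice, normalization, filters, blocks and leaving out each array. Array number limits the precision.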

Additional observations from a re-analysis of the deposited data

Results flagged for a closer look

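In 4 results the change of a gene under the same contrast differed between DKO and WT by a test of the difference itself, limma's interaction term with p-values adjusted over all genes. For Des the change of Dex- cultures against Flk1(+) cells was 2.21 larger in DKO on the log2 scale (adjusted p = 1.17e-05). The change of Dex+ against Dex- cultures was lower in DKO by 2.27 for Des (difference -2.27, adjusted p = 2.31e-06), by 4.36 for Cnn1 (difference -4.36, adjusted p = 0.000390) and by 5.30 for Synpo (difference -5.30, adjusted p = 7.88e-05). The Des results share the DKO Dex- arrays, and the second Des probe set, at 4.47 to 5.34 on all arrays, gave -0.072 for the first difference and 0.004 for the second.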

How the results depend on the processing

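Counts below are of members called, out of 8 unless another number is given. Leaving out the parental Flk1(+) arrays gave 2 for the difference of the DKO and WT culture steps, 1 for DKO against WT in Flk1(+) cells (Acta2 at 2.12), 1 for Flk1(+) against ES in DKO and 0 in WT. Leaving out probe sets marked as able to match several transcripts left 7 members, without Actg2, and gave 2 for the difference of the culture steps, 0 for DKO against WT in ES, 1 for PE against ES in DKO, 1 for Flk1(+) against ES in WT and 1 for Dex+ against PE in DKO. Fitting only the groups compared gave 2 for DKO against WT in ES, 2 for PE against ES in WT and 0 for Flk1(+) against ES in WT. Flk1(+) against ES in WT had 1 with the most variable probe set, with all probe sets and with median-centred arrays, and the same comparison in DKO had 1 after a further quantile normalization. Without the dimmest 40% of genes, which left 6 members, Dex+ against Dex- in WT had 1. The replicate number as a block gave 1 for Dex+ against Dex- in WT (Cnn1), and as a block within each state, an alternative chosen after seeing the data, it gave 2 for DKO against WT in ES (Acta2 and Cnn1). The block changed no other count by over 1.5 times.

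Leaving out 1 array at a time gave 0 to 0 for DKO against WT in ES, 0 to 1 in Flk1(+), 1 to 3 in Dex- and 3 to 5 in Dex+ cultures. It gave 5 to 7 for Dex+ against Dex- in DKO and 0 to 1 in WT, 3 to 5 for the difference of these, 1 to 2 for the difference of the culture steps, 0 to 3 for Flk1(+) against ES in WT and 1 to 2 for PE against ES in DKO. Where arrays were left out fewer samples were in the fit and the lone array was assumed to vary like the other groups, and otherwise the cause was not tested.

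The signs of called changes turned only with other probe sets or without those that may match several transcripts. For PE against ES in DKO, Acta2 was 0.11 with its second probe set, 0.11 without the ambiguous ones and 0.12 with its dimmest. A dim Cald1 probe set gave -0.031 for Dex- against Flk1(+) in DKO. The second Des probe set gave 0.12 for Dex+ against Dex- in DKO, -0.050 for DKO against WT in Dex-, and -0.072 and 0.004 for the 2 differences. Low signal limits Myh11 and these probe sets, and the top of the scale limits Acta2.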

Other observations

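Some striated muscle genes were, like Des, higher in DKO than in WT Dex- cultures. Unlike that of Des, their difference was not always confined to that state. Acta1 was 3.02 higher in DKO than in WT Dex- cultures (adjusted p = 1.53e-06) and Actc1 4.14 higher (adjusted p = 0.000172). Acta1 was also called higher in DKO than in WT ES cells. Of 6 skeletal muscle genes 2 were called higher in DKO in Dex- cultures (5.84% of all genes called), 1 in ES cells (1.39%) and 1 in Flk1(+) cells (0.698%). Tnnt3, a troponin of fast skeletal muscle, was 8.72 and 8.21 in DKO Dex-, against 6.06 and 6.40 in WT Dex-, and fell by 2.51 in DKO with Dex (adjusted p = 6.25e-06). Myh3, embryonic myosin, was 1.13 higher in DKO than in WT Dex- cultures (adjusted p = 0.0133). Of the factors that define skeletal muscle, Myod1 and Myog varied little, at 5.06 to 5.92 and 4.76 to 5.36 over all 20 arrays. Values of Myf5, also measured, are not given here. Cardiac troponin Tnnt2 had another course, at 12.87 and 12.54 in DKO Dex+, against 8.79 and 10.42 in DKO Dex-, and 12.93 and 11.84 in WT Dex+, against 7.16 and 8.11 in WT Dex-. These genes were picked after their values were seen.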
